A study of Arabidopsis thaliana with 6 samples.

Results

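The genes described here are 16 mitochondrion-encoded genes of Arabidopsis thaliana, each named by the platform annotation as the sole gene of a probe set. A probe set is the group of short probes that reports a transcript. The 16 genes hold 23 of the 13513 probe sets that name 1 gene. They were chosen by name (symbols starting with nad, cox, ccb, matR or orf, or a mitochondrial locus tag). A name also had to match a mitochondrial symbol or synonym in the RefSeq table of assembly TAIR10.1, so all 16 match by construction. That table lists 32 protein-coding mitochondrial symbols. None of the 16 was named by a mitochondrial locus tag. The 16 genes comprise 10 respiratory chain genes with 17 probe sets (nad1, nad2, nad4, nad4L, nad5, nad6, nad7, nad9, cox1 and cox2), 4 genes of cytochrome c maturation (ccb203, ccb206, ccb382 and ccb452), the maturase gene matR, and 1 gene named as an open reading frame, orfX.

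Transcripts were measured in siliques, the pods that hold the seeds, on 6 arrays of the Affymetrix ATH1 design, 3 for old pods and 3 for young pods. All 6 samples share the accession Col-1, compost in a glasshouse at 19 degrees Celsius with 24 h of light, and the labelled stage at which the first silique had shattered, so only the titles separate the groups. The labels do not state how pod age was judged or whether the replicates were separate plants, so p-values cover only the spread among these arrays, which may be technical. The series addresses transcript changes as siliques senesce. In whole pods, fewer cells of a type and less RNA per cell cannot be told apart.

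The plant mitochondrial genome encodes a small part of the respiratory machinery, while most subunits are made from nuclear genes and imported. NADH dehydrogenase, or complex I, takes electrons from NADH, and cytochrome c oxidase, or complex IV, passes them to oxygen. The ccb genes encode proteins of the system that attaches haem to cytochromes of the c type, which carry electrons in the respiratory chain. In plants most mitochondrial transcripts lack stable poly(A) tails, several are pieced together by trans-splicing, and chromosome 2 carries a large copy of the mitochondrial genome. The priming of the RNA before labelling is not stated in the labels.

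Values are MAS5 signals, a linear intensity that the submitters scaled per array. Testing required a signal over the 40th percentile of the array (24.3 to 36.5) on 3 or more arrays. Fold changes compare old with young pods in a limma fit of log2 signals. Their standard errors (SE) are in log2 units, and p-values were adjusted by Benjamini-Hochberg over all 14277 probe sets tested. For a gene with several probe sets, the probe set with the highest mean log2 signal stands for it. Of the 16 genes 12 were tested. The other 4, nad2, nad7, ccb203 and matR, were above the percentile on 2 arrays or fewer.

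Of the 12 tested genes, 1 rose and 1 fell in old pods, and both belong to cytochrome c maturation. The ccb452 transcript was 2.22-fold higher and the ccb382 transcript 2.30-fold lower. None of the 8 tested respiratory genes passed the threshold, and orfX did not pass. Over all probe sets tested 22.0% were called, 9.68% higher and 12.3% lower, so 2 calls among 12 genes lie near that background. Neither gene passed after scaling on the hybridisation controls. The old and young arrays did not overlap for 5 of the 12 genes, 4 of them higher and 1 lower in old pods, beside 40.9% of all probe sets tested, 17.9% higher and 23.0% lower.

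The ccb452 gene, named ccmFC in the reference, encodes a piece of the enzyme that joins haem to cytochrome c. Its signal was 172.2, 291.2 and 149.2 in old pods, against 85.8, 77.2 and 103.0 in young pods. Every old array lay above every young array. The mean was 204 ± 76.2 in old pods and 88.7 ± 13.1 in young pods (SD, n = 3 arrays each), a log2 fold change of 1.15 (SE 0.28, limma adjusted p = 0.0225). The ccb452 call ended without old replicate 2, young replicate 1 or young replicate 2 (limma adjusted p 0.0563, 0.0514 and 0.0829). Its probe set has the suffix that the array design gives to probes shared by several transcripts.

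The ccb382 gene, named ccmFN1 in the reference, encodes another piece of the same enzyme. Its signal was 193.8, 117.3 and 98.3 in old pods, against 336.0, 261.6 and 309.0 in young pods. Every old array lay below every young array. The mean was 136 ± 50.6 in old pods and 302.2 ± 37.7 in young pods (SD, n = 3 arrays each), a log2 fold change of -1.20 (SE 0.27, limma adjusted p = 0.0177). The ccb382 call ended without old replicate 2, old replicate 3 or young replicate 3 (limma adjusted p 0.0710, 0.0573 and 0.0543).

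The 2 other ccb genes were ccb203 and ccb206. The ccb203 gene, named ccmFN2 in the reference, encodes a further piece of the haem-joining enzyme. Its signal was 55.2, 35.3 and 22.4 in old pods, against 2.4, 12.3 and 10.1 in young pods. Every old array lay above every young array, but only 2 arrays, both of old pods, were above the percentile, so ccb203 was not tested. With the young signals raised to the percentile, ccb203 was 1.03-fold higher in old pods, a point value given without an error. Old replicate 3, at 22.4, was itself under the percentile of its array (24.3). With no filter on low signals its log2 fold change was 2.40 (SE 0.70) and did not pass (limma adjusted p = 0.0572). The ccb206 gene, named ccmB in the reference, encodes a membrane protein of the same maturation system. Its signal was 59.4, 51.1 and 30.4 in old pods, against 43.4, 55.2 and 54.6 in young pods, and the groups overlapped. The log2 fold change of ccb206 was -0.17, with a 95% interval of -0.88 to 0.54 (limma adjusted p = 0.737).

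**Figure D1:**
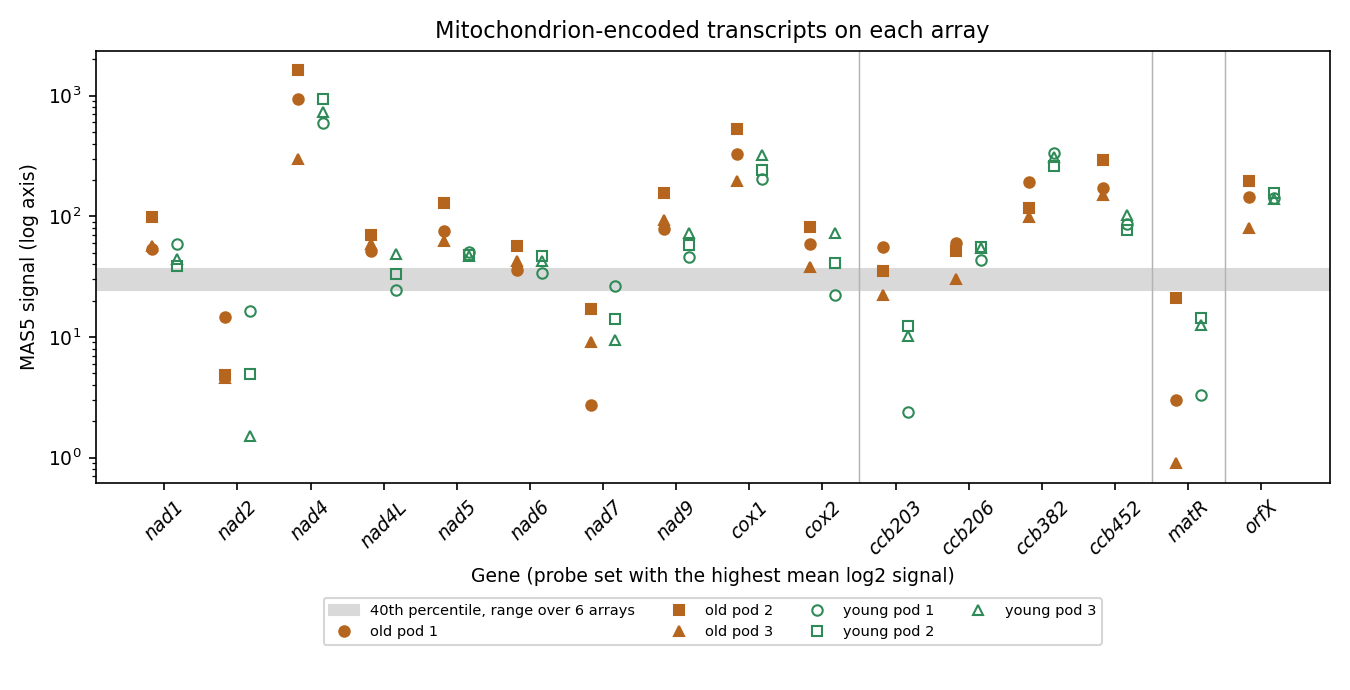
MAS5 signal (log axis) of the 16 mitochondrion-encoded genes on each array, old pods as filled brown points and young pods as open green points, with circle, square and triangle for replicates 1, 2 and 3. The grey band spans the 40th percentile of the 6 arrays (24.3 to 36.5). Old and young points separate for ccb452, ccb382, ccb203, nad4L, nad5 and nad9, and nad2, nad7 and matR lie below it on all arrays, apart from young replicate 1 of nad7 at 26.6, which is inside the band and below the percentile of its own array (36.5).

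In complex I, 6 of 8 genes were tested and none passed. Their log2 fold changes ran from 0.05 to 0.86 with a median of 0.65, beside a median of -0.08 over all probe sets tested. At an unadjusted p under 0.05 there were 3, nad9, nad4L and nad5, and for these 3 every old array lay above every young array. Over all probe sets tested 15.5% were higher at that unadjusted p and 17.9% had every old array above every young array.

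The nad9 gene encodes a subunit of the arm of complex I that projects into the matrix. Its signal was 78.1, 156.5 and 93.0 in old pods, against 46.1, 57.3 and 72.3 in young pods. The log2 fold change was 0.86 (SE 0.31, limma adjusted p = 0.0839), and nad9 passed without old replicate 1 (limma adjusted p = 0.0397), while without old replicate 2 it was at 0.57 (limma adjusted p = 0.242). The nad4L gene encodes a small subunit of the membrane arm. Its signal was 51.1, 69.5 and 59.2 in old pods, against 24.3, 33.5 and 48.2 in young pods, where replicate 1 was under the percentile. The log2 fold change of nad4L was 0.81 (SE 0.31, limma adjusted p = 0.105).

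The nad5 gene encodes a proton-pumping subunit of the membrane arm, and its transcript is trans-spliced. The brighter of its 2 probe sets had signals of 74.9, 128.7 and 61.9 in old pods, against 50.8, 47.8 and 47.1 in young pods. The log2 fold change was 0.79 (SE 0.29, limma adjusted p = 0.0914). The nad5 call depended on the scaling, since it passed after quantile normalization and after median centring (limma adjusted p = 0.0445 and 0.0453). Without old replicate 2 it was at 0.49. The dimmer nad5 probe set was at 6.1, 51.9 and 20.3 in old pods, against 5.5, 7.2 and 23.3 in young pods, and above the percentile on 1 array.

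The nad4 gene encodes another proton-pumping subunit. Its signal was 928.7, 1616.4 and 295.1 in old pods, against 587.2, 929.2 and 725.5 in young pods. Old replicates 2 and 3 were the highest and the lowest of all 6 arrays. The log2 fold change of nad4 was 0.05 (SE 0.56, limma adjusted p = 0.959), with a 95% interval from -1.23 to 1.34, so changes of more than 2-fold either way lie inside it.

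The nad6 gene, of the membrane arm, was at 36.0, 56.5 and 42.6 in old pods, against 33.8, 46.6 and 42.9 in young pods. The groups overlapped, and the log2 fold change of nad6 was 0.12 with a 95% interval of -0.53 to 0.77 (limma adjusted p = 0.800). The nad7 gene, of the matrix arm, was at 2.7, 16.9 and 9.1 in old pods, against 26.6, 14.1 and 9.4 in young pods. The nad2 gene, of the membrane arm, was at 14.7, 4.8 and 4.6 in old pods, against 16.4, 4.9 and 1.5 in young pods. Neither nad7 nor nad2 exceeded the percentile on any array, so no direction is given for them.

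**Figure D2:**
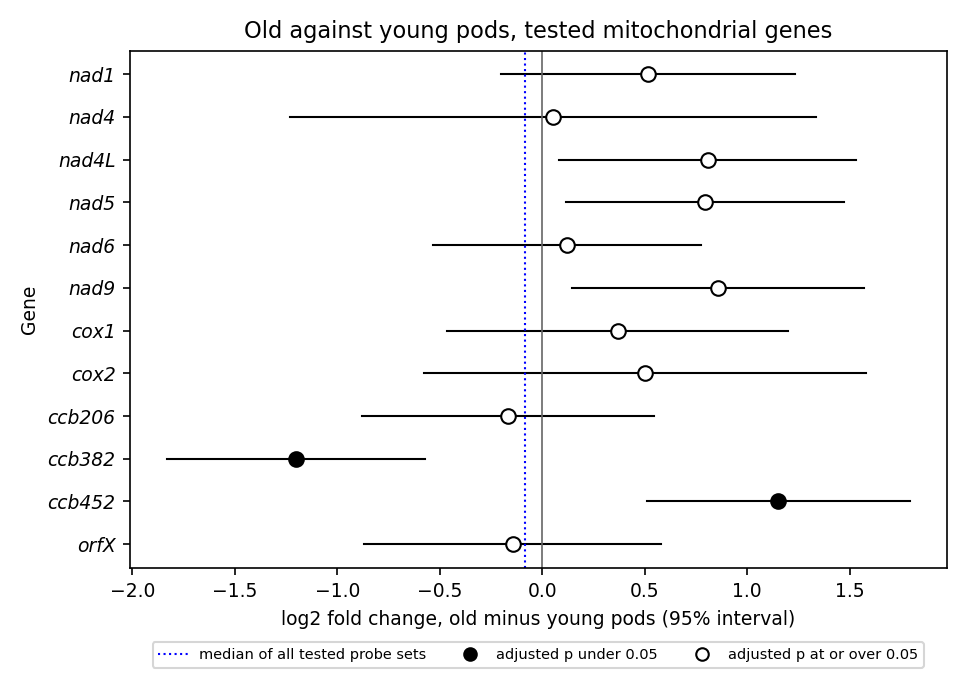
Log2 fold change, old minus young pods, of the 12 tested genes, with 95% intervals from limma. Filled points passed an adjusted p of 0.05, and the dotted line is the median of all probe sets tested (-0.08). The 2 filled points, ccb382 at -1.20 and ccb452 at 1.15, lie on opposite sides of 0, and the interval of nad4 is the widest at -1.23 to 1.34.

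The nad1 gene, a membrane-arm subunit whose transcript is trans-spliced, was named for 7 probe sets, of which 3 were tested and none passed (limma, none at an unadjusted p under 0.05 either). The one with the highest mean log2 signal was at 53.3, 98.3 and 56.2 in old pods, against 59.3, 38.5 and 44.2 in young pods. Its log2 fold change was 0.51 (SE 0.31, limma adjusted p = 0.277), or 0.23 without old replicate 2. The other tested nad1 probe sets were at -0.08 (SE 0.28) and 0.48 (SE 0.61). For 1 of the 4 untested nad1 probe sets every old array lay above every young array, with signals of 8.4, 36.3 and 22.3 in old pods against 7.3, 3.5 and 4.4 in young pods. Only 1 of these signals exceeded the percentile of its array. With no filter that probe set had a log2 fold change of 1.97 (SE 0.68, limma adjusted p = 0.0947). The nad1 probe sets therefore differed in fitted change by more than 2 on the log2 scale, with the widest differences at low signal. Which stretch of the gene each probe set matches is not known from the files used here.

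**Figure D3:**
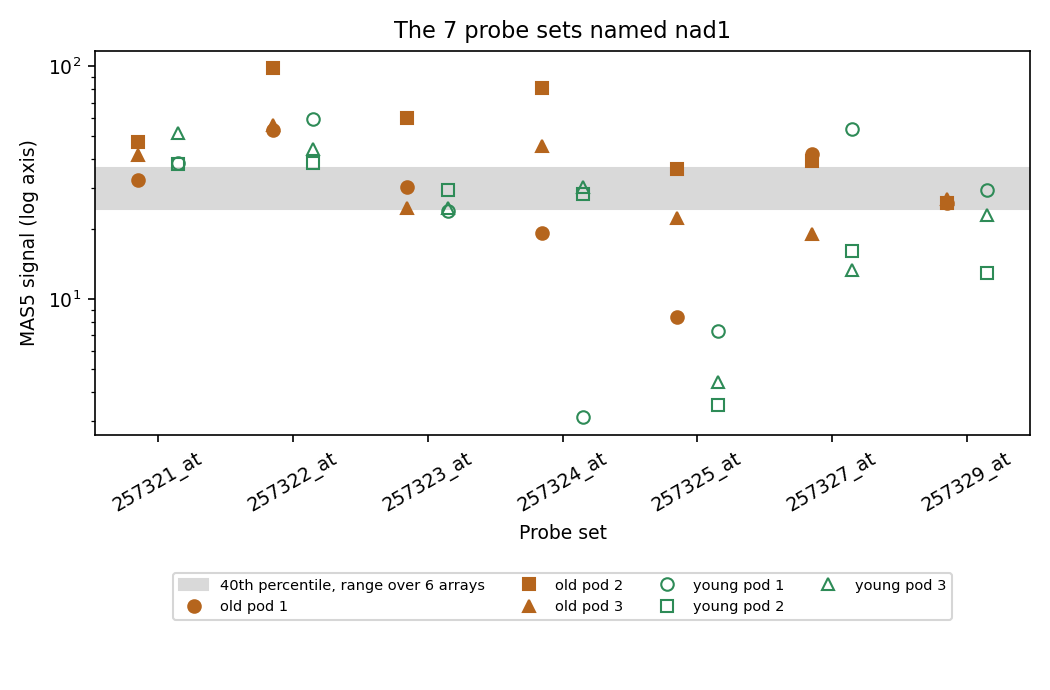
MAS5 signal (log axis) of the 7 probe sets named nad1, old pods as filled brown points and young pods as open green points, with the 40th percentile of the 6 arrays as a grey band. Old replicate 2, the filled square, is the highest of the old arrays for 5 of the 7.

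In complex IV both mitochondrial genes were tested and neither passed. The cox1 gene encodes the catalytic subunit that reduces oxygen, and its signal was 328.1, 528.1 and 194.6 in old pods, against 203.6, 241.0 and 319.9 in young pods. Its log2 fold change was 0.37 (SE 0.36, limma adjusted p = 0.508), or 0.013 without old replicate 2 and 0.73 without old replicate 3. The cox2 gene encodes the subunit that accepts electrons from cytochrome c, and its signal was 59.2, 82.0 and 38.2 in old pods, against 22.3, 40.8 and 71.9 in young pods. Its log2 fold change was 0.50 (SE 0.47, limma adjusted p = 0.484), or 0.074 without young replicate 1 and 0.92 without young replicate 3. For both genes the old and young arrays overlapped, and the 95% intervals of -0.47 to 1.20 for cox1 and -0.58 to 1.58 for cox2 each include 0 and a 2-fold increase.

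The comparison of respiratory genes with open reading frames rests on 1 open reading frame. The orfX gene, named mttB in the reference with the synonym tatC, encodes a protein related to a membrane translocase subunit of bacteria. Its signal was 145.1, 194.7 and 80.5 in old pods, against 141.3, 155.3 and 140.0 in young pods. The 3 young values lay inside the range of the old ones, and the spread was 0.65 in old pods and 0.08 in young pods (SD, log2, n = 3 arrays each). The log2 fold change of orfX was -0.14, with a 95% interval of -0.87 to 0.58 (limma adjusted p = 0.779). Its probe set, like those of matR, ccb452, nad6 and the brighter nad5, has the suffix for probes shared by several transcripts.

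The 8 tested respiratory genes had a median log2 fold change of 0.51, against -0.14 for orfX, a difference of 0.65. In each array, the mean log2 signal of the 8 respiratory genes was 6.65, 7.36 and 6.33 in old pods, against 6.01, 6.30 and 6.53 in young pods. Old replicates 1 and 2 lay above the young range and old replicate 3 within it. All 8 had a fitted change above 0, although nad4 turned negative after quantile normalization (-0.023) and after scaling on the hybridisation controls (-0.014), and none of the 8 passed. Median centring added 0.26 to every log2 fold change and moved the median of all probe sets tested to 0.18, beside 0.77 for the respiratory genes and 0.12 for orfX.

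The matR gene lies in an intron of nad1 and encodes a maturase that helps splice mitochondrial introns. Its signal was 3.0, 21.0 and 0.9 in old pods, against 3.3, 14.4 and 12.5 in young pods. All 6 values were under the percentile, so its level has only an upper bound in both groups and no fold is given.

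The old arrays differed among themselves in a shared order. Of the 12 tested genes, 10 had their highest old signal on replicate 2, and all 8 tested respiratory genes did. Over all probe sets tested the share was 29.8%. The lowest old signal was on replicate 3 for 8 of the 12, against 33.0% of all probe sets tested. Both together held for 6 of the 12, namely nad4, cox1, cox2, nad5, ccb452 and orfX, against 12.0% of all. The exceptions to a high old replicate 2 were ccb206 and ccb382, where replicate 1 was the highest. The genes nad4, orfX and cox1 had their highest signal of all 6 arrays on old replicate 2 and their lowest on old replicate 3. In the reference nad4 and orfX are neighbours, but the pattern was not limited to them. It was also seen for the probe sets that name atp1 or rps3 with another gene.

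**Figure D4:**
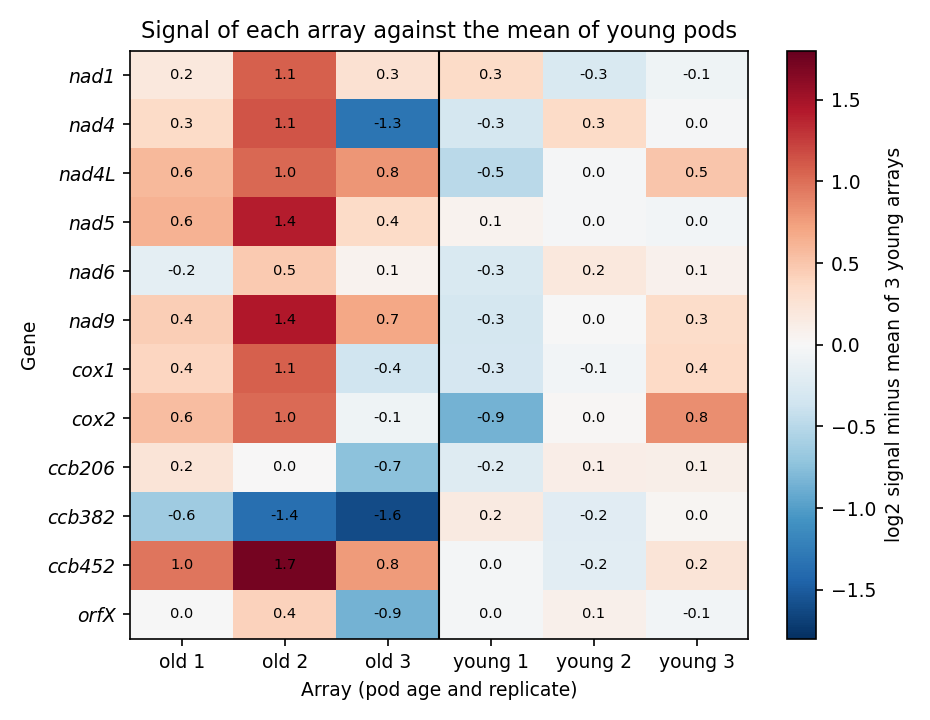
Log2 signal of the 12 tested genes on each array minus the mean of that gene's 3 young arrays, with old arrays on the left and young arrays on the right. Old replicate 2 is the highest old array for 10 of the 12 genes, and ccb382 is below the young mean on all 3 old arrays.

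Several measures of the RNA differed among these arrays, and their part in the result was not tested. The log2 ratio of 3 prime to 5 prime signal for GAPDH, a control of RNA length, was 3.60, 3.75 and 1.91 in old pods, against 3.98, 2.56 and 2.63 in young pods. It was highest among the old arrays on replicate 2 and lowest on replicate 3. Among the young arrays it was highest on replicate 1, where the mean log2 signal of the respiratory genes was lowest (6.01). For actin the ratio was 3.40, 3.79 and 3.41 in old pods, against 3.19, 3.09 and 3.05 in young pods, with no overlap between the groups (exact two-sided permutation p = 0.1, the smallest possible). For ubiquitin it was 2.59, 1.96 and 1.24 in old pods, against 2.27, 1.74 and 1.90 in young pods. Neither actin nor ubiquitin had the order of GAPDH among the old arrays. The GAPDH and ubiquitin ratios overlapped between the groups (exact permutation p = 1 for each). The probe set for 5S ribosomal RNA was at 60.6, 24.9 and 14.4 in old pods, against 67.8, 69.3 and 112 in young pods. Every old array lay below every young array for 5S, and old replicates 2 and 3 were under the percentile of their arrays (25.2 and 24.3). The probe set for cytosolic 25S ribosomal RNA, a transcript without a poly(A) tail, was at 7306, 171.4 and 2071 in old pods, against 5114, 117.5 and 271.7 in young pods. It was highest on replicate 1 of both groups. The hybridisation controls, transcripts added to every sample, also averaged highest on the replicate 1 arrays, at 9.96 for the old and 9.77 for the young array, against 8.04 to 8.60 on the other 4 (mean log2). With replicates 2 and 3 alone, a setting added after the data were seen, the count was again 1 gene higher and 1 lower.

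A further 12 probe sets name a mitochondrial gene together with another gene, in most cases a nuclear one on chromosome 2, and so lie outside the 16 genes. Of these 9 were tested and none passed (limma, with none at an unadjusted p under 0.05). Their log2 fold changes ran from -0.34 to 0.36 with a median of -0.16, and the groups overlapped for all 9. The probe set for rps3 and rpl16, ribosomal protein genes, was at 888.7, 1322.5 and 242.6 in old pods, against 711.8, 1027.6 and 783.1 in young pods. It shared the order of nad4, with old replicate 2 the highest and old replicate 3 the lowest of the 6 arrays. The probe set shared by atp1, an ATP synthase subunit, and a nuclear locus had the largest fitted change of the 9, at 0.36 (SE 0.38, limma adjusted p = 0.547). The probe set shared by cob, the cytochrome b of complex III, and a nuclear locus was at -0.26 (SE 0.38). That shared by cox3 of complex IV and a nuclear locus was at -0.01 (SE 0.30), and that shared by atp9 and a nuclear locus at -0.16 (SE 0.56).

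The nuclear partners of these genes were read from 9 lists with 129 loci. Of these 50 were named as the sole gene of a probe set and 43 tested. Of the 43, 1 rose and none fell, with a median log2 fold change of 0.12 and a range from -0.78 to 1.04. Over all probe sets tested 9.68% rose and 12.3% fell. The old and young arrays did not overlap for 18 of the 43, beside 40.9% of all probe sets tested. The 1 nuclear partner that rose was NDB2, an NADH dehydrogenase of the outer face of the inner membrane that bypasses complex I. Its signal was 141.7, 113.4 and 213.4 in old pods, against 78.1, 68.7 and 73.9 in young pods, with a log2 fold change of 1.04 (SE 0.25, limma adjusted p = 0.0242). Every old array lay above every young array. The NDB2 call ended after scaling on the hybridisation controls and without old replicate 3, young replicate 2 or young replicate 3 (limma adjusted p 0.0599, 0.0843 and 0.0661). The other tested members of its list, NDB1, NDB3 and NDC1, were at 0.00, -0.11 and 0.23.

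None of 10 tested nuclear genes of complex I passed (limma), with a median log2 fold change of -0.03. The brightest of them, AT3G08610, was at 0.49 (SE 0.18), and AT5G11770, which encodes a subunit of the matrix arm, at 0.59 (SE 0.18, limma adjusted p = 0.0557). In complex II, succinate dehydrogenase, none of 3 passed, with SDH1-1 at 0.20 and SDH2-1 at 0.47. Among 12 genes of complex III and cytochrome c none passed, with a median of 0.39 and AT3G10860 at 0.15. Cytochrome c itself was at 0.39 for CYTC-1 and at 0.70 for CYTC-2 (SE 0.25, limma adjusted p = 0.0872). Of 7 nuclear genes of complex IV none passed, with AT2G47380 at 0.76 (SE 0.23, limma adjusted p = 0.0516) and AT4G37830 at 0.12. AT2G47380 passed with the stricter filter, with low signals raised to the percentile, with log2(signal + 16), with median centring, without young replicate 1 and in replicates 2 and 3 alone (limma adjusted p from 0.0209 to 0.0498). The complex IV gene AT3G15640 was at -0.78 (SE 0.24, limma adjusted p = 0.0529), and it passed once replicate number was a block (limma adjusted p = 0.0256), with the stricter filter, without young replicate 1 and in replicates 2 and 3 alone (limma adjusted p from 0.0302 to 0.0449). The 3 tested ATP synthase genes lay between -0.07 and 0.05 and none passed. The brightest of them, AT4G30010 and AT1G51650, were at -0.02 and -0.07, and both were above 0 after median centring (0.24 and 0.19). For mitochondrial gene expression and genome upkeep 3 of 26 loci were tested, at -0.50 to 0.25, and none passed. Of these AT5G46920 was at 0.25 (SE 0.32) and OSB1, a protein that binds single-stranded mitochondrial DNA, at -0.40 (SE 0.22). The assembly list gave 1 tested gene of 8, AT1G02410, at 0.21. At an unadjusted p under 0.05 there were 10 of the 43 nuclear partners, against 35.9% of all probe sets tested. The list of carriers, import proteins and prohibitins had no locus that the annotation names as the sole gene of a probe set. Its 16 loci were therefore not assessed, which does not show that the array lacks them.

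The plastid-encoded genes, transcripts of the other organelle genome, were read in the same fit. Of 68 tested plastid-encoded genes 26 fell and none rose, with a median log2 fold change of -0.97. Over all probe sets tested 12.3% fell and 9.68% rose. With the replicate number as a block 40 plastid-encoded genes fell, beside 1964 of all 14277 probe sets tested. The 12 mitochondrial genes had a median of 0.43 with 1 lower. The mean log2 signal of the 68 plastid genes was 8.61, 9.17 and 8.39 in old pods, against 9.80, 9.98 and 9.51 in young pods, and the groups did not overlap. That of the 12 mitochondrial genes was 6.77, 7.27 and 6.31 in old pods, against 6.29, 6.48 and 6.67 in young pods, and the groups overlapped. In both sets old replicate 2 was the highest and old replicate 3 the lowest of the old arrays. Whether the change of the plastid genes differs from that of the mitochondrial genes was not tested. Without young replicate 2 or old replicate 3 the plastid count was 12 or 16.

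**Figure D5:**
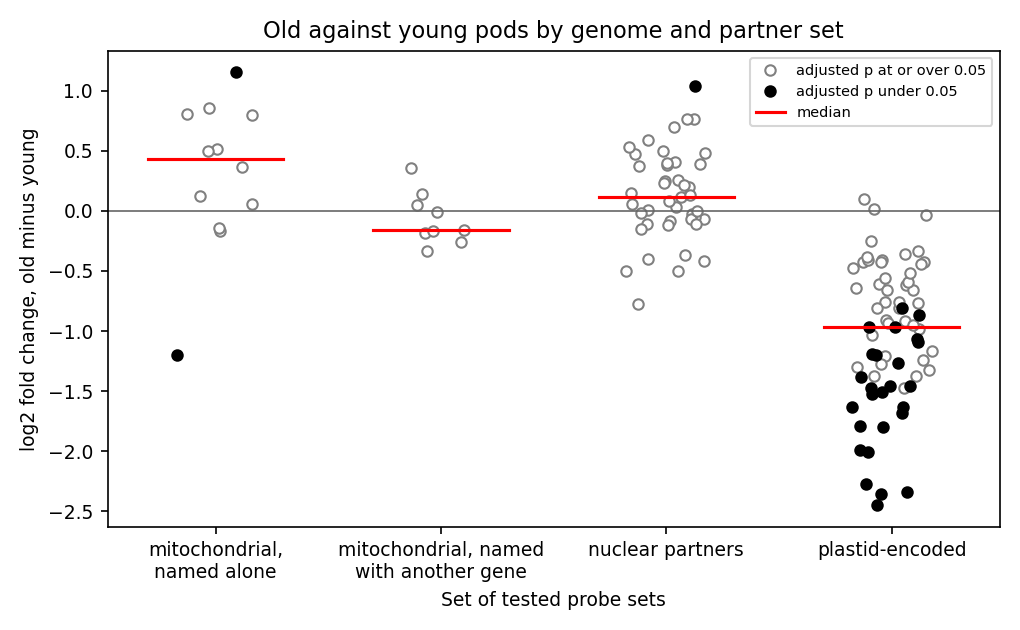
Log2 fold change, old minus young pods, of each tested probe set in 4 sets, with filled points past an adjusted p of 0.05 and the red line at the median. The medians are 0.43 for the 12 mitochondrial genes, -0.16 for the 9 mitochondrial probe sets named with another gene, 0.12 for the 43 nuclear partners and -0.97 for the 68 plastid-encoded genes.

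The labelled tissue was checked on 13 silique and seed markers. Of these 5 were named as the sole gene of a probe set, all of them tested. ADPG1 of the dehiscence zone rose and the seed coat gene BAN fell. The seed storage gene PAP85 was above the percentile on the 3 old arrays alone, at 3700.8, 214.9 and 210.1 in old pods, against 25.9, 14.9 and 15.8 in young pods. Its young level is thus an upper bound, old replicate 1 was far above the other old arrays, and its call is no check of the tissue. The fruit regulators SPT and ALC did not pass. Of 3 pollen markers 1, AT5G45880, was named and tested, and it was above the percentile on all 6 arrays. Its signal was 73.5, 131.8 and 206.1 in old pods, against 254.3, 187.5 and 192.3 in young pods. Its change did not pass. None of 3 root markers was bright enough to be tested.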

How the data were processed

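The authors deposited a linear intensity for each probe set on each array. The submitters' processing notes name MAS5, without a version, a scaling target or detection calls. Signals under 0.1 were set to 0.1 and taken as log2. Probe sets over the 40th percentile of the array on 3 or more of 6 arrays were fitted with limma 3.58.1 in R 4.3.3 (lmFit, eBayes with a variance trend) without further normalization, with Benjamini-Hochberg adjustment, a threshold of 0.05 and two-sided tests. The fit was also run on simulated signals with known changes and independent noise. These lacked the shared differences between arrays seen here, so that run is no check of the calls. Control probe sets (64 of 22810) were left out. Permutation tests used scipy 1.17.1. Because each array was scaled before deposit, a change shared by most transcripts would not be visible, and the number of arrays limits the precision.

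Names came from the platform annotation, which leaves 8730 probe sets unnamed. Any of these that match mitochondrial reading frames are not analysed here. The annotation and files used here hold no sequence or probe position. Every mitochondrial gene that met the choice by name is described, and of each nuclear list up to 4 called genes or the 2 brightest. NDB1, NDB3, NDC1, CYTC-2 and AT3G15640 are named outside that rule, after their values were seen. Any other mitochondrial gene named alone was not counted. The genes and lists were chosen with earlier results of these data known. After removing group means, old and young arrays numbered 1, 2 and 3 correlated at 0.29, 0.11 and 0.12, all above 0.1. Arrays with unlike numbers were not compared, so these values do not settle whether the numbers pair the samples. The main fit left the replicate number out, and a fit with it as a block was an alternative. Alternatives covered filters, floors, scaling, the variance trend, the block and leaving out each array.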

Additional observations from a re-analysis of the deposited data

How the results depend on the processing

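The counts of 1 gene higher and 1 lower in old pods held with no filter, with the stricter filter, with low signals raised to the percentile, with log2(signal + 16), without the variance trend, with every probe set counted on its own, with the replicate number as a block (1 and 1), and in replicates 2 and 3 alone. Quantile normalization and median centring each gave 2 higher, the second being nad5. Scaling on the hybridisation controls gave 0 higher and 0 lower, while its log2 fold changes were 1.08 for ccb452 and -1.27 for ccb382, and over all probe sets its calls were 607 against 3145. Leaving out 1 array in turn gave 0 to 2 higher and 0 to 1 lower. The medians moved by less than the spread between arrays, with -0.43 to 0.21 for orfX, 0.24 to 0.76 for the respiratory genes and 0.54 to 0.83 for their difference when 1 array was left out. The replicate block changed no call among the 12 mitochondrial genes. No result that passed reversed. Among those that did not pass, orfX was at 0.12 with median centring and 0.21 without old replicate 3. The change of nad4 was -0.023 after quantile normalization, -0.014 after scaling on the hybridisation controls, -0.25 in replicates 2 and 3 alone, and -0.49 to 0.74 when 1 array was left out. That of ccb206 was 0.12 after quantile normalization, 0.092 with median centring and -0.37 to 0.12 when 1 array was left out, and that of nad6 then lay between -0.057 and 0.27. Among nuclear partners, AT1G51650 was at 0.19 with median centring and -0.17 to 0.032 when 1 array was left out. AT4G30010 was at 0.24 with median centring, 0.012 in replicates 2 and 3 alone and -0.10 to 0.092 when 1 array was left out, and AT5G46920 then lay between -0.043 and 0.43. The causes were not tested. The plastid count of 26 lower became 17 with median centring and 0 with hybridisation control scaling, and the nuclear partner count of 1 higher became 6 with median centring and 4 in replicates 2 and 3 alone. Signals near the percentile limit what can be read for nad2, nad7, ccb203 and matR, and low signal also limits several tested genes. The stricter filter, at the 60th percentile, left out nad1, nad4L, nad5, nad6, cox2 and ccb206, and the respiratory median was then 0.37. With low signals raised to the percentile, the change was 0.61 for nad4L and 0.26 for cox2.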
